A study of Mus musculus with 26 samples.

Results

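The genes described here are 10 imprinted genes of the mouse that have been grouped as a growth network: H19, Dlk1, Meg3, Rian, Peg3, Mest, Plagl1, Grb10, Ndn and Zim1. They were taken by symbol from both gene count tables, and all 10 were found among the 41442 gene rows of each. The cells were labelled mesenchyme of the fetal reproductive tract. Embryos carried Gli1-CreER or Amhr2-Cre together with the red reporter Rosa-Tomato, and dams of both crosses were given tamoxifen intraperitoneally, 1 mg each on days E12.5 and E13.5. Gli1+ cells were sorted from the mesonephros, the embryonic kidney region that carries the Wolffian and Müllerian ducts, of XX (female) or XY (male) embryos, taken at E14.5 or E16.5, with 3 RNA-seq libraries in each of these 4 groups. Amhr2+ and Gli1+ cells were sorted from uteri labelled neonatal with an age of E19.5, again with 3 libraries each. Gli1-CreER acts while tamoxifen is present, so it marks cells that expressed Gli1, a target of hedgehog signalling, in that window, and their descendants. Amhr2-Cre needs no tamoxifen and marks cells that have expressed Amhr2, the receptor of anti-Müllerian hormone, at any earlier time. The labels tie no library to an animal or litter, so p-values measure only the spread between libraries, which may be technical.

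An imprinted gene is read mainly from the copy inherited from one parent, because marks set in the egg or sperm, DNA methylation above all, keep the other copy silent. As a rule of thumb, genes read from the father's copy favour fetal growth and those read from the mother's copy restrain it, and many of them are abundant in fetal mesenchyme and decline after birth. PLAGL1, a zinc finger factor, is known to bind and activate several of the other imprinted genes, which is why they are spoken of as a network. Of the 10 genes, H19, Meg3, Rian, Grb10 and Zim1 are read mainly from the maternal copy in most tissues, and Dlk1, Peg3, Mest, Plagl1 and Ndn from the paternal one. The deposited counts do not separate the parental copies, so every value below is the sum over both.

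Dlk1, Meg3 and Rian are neighbours on chromosome 12, and Peg3 and Zim1 are neighbours on chromosome 7 (build mm10, called GRCm38 by its makers). Dlk1 (chr12:109452849-109463336) is followed by the noncoding genes Meg3 (chr12:109541005-109571726) and Rian (chr12:109603940-109661716), all on the plus strand. Zim1 (chr7:6671269-6696450) and Peg3 (chr7:6703892-6730421) lie next to each other on the minus strand. The 250 bases before the starts of Peg3, Zim1 and Meg3 are shown as examples. An open-chromatin peak of the study covers each of these starts, and each of these genes passed the test of age in females. Both also held for H19, Plagl1 and Grb10, whose sequences are not shown. The sequences are from RefSeq on GRCm38.p6, written 5′ to 3′ on the gene's own strand, and the capitals mark GGGGCCCC, a core sequence that PLAGL1 is known to bind.

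Peg3, chr7:6730420-6730669, minus strand: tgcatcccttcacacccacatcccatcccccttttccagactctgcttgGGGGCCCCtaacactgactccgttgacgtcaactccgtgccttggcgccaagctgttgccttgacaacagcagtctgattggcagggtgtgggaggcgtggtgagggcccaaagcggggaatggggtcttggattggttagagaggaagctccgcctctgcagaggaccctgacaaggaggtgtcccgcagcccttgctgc

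Zim1, chr7:6696433-6696682, minus strand: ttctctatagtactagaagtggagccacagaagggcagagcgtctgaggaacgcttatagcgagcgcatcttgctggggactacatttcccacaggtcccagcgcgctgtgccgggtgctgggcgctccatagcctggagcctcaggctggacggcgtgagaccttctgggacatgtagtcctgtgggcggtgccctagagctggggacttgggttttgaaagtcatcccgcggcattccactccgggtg

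Meg3, chr12:109540746-109540995, plus strand: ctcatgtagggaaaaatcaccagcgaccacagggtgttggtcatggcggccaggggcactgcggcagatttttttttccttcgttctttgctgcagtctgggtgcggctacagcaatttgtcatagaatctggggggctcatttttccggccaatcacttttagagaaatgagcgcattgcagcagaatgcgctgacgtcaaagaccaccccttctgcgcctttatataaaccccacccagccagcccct

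In the Peg3 sequence the GGGGCCCC match begins 201 bases before the start, while the Zim1 and Meg3 sequences hold no match. Promoter windows from 250 bases before to 50 after the start were listed for 9 of the 10 members, as 13 windows in all. GGGGCCCC was in 1 of these 13 windows and in 1.078% of all 32851 windows, counted on both strands. GCCATNTT, a YY1 sequence, was in 0 of 13 member windows and in 6.052% of all. The CTCF core motif was in 0 of 13 and in 0.03653% of all. A match describes the letters only. The window at the first Grb10 start was 80% G and C with 45 CpG pairs, against medians of 52.67% and 7 pairs over all windows, and the Rian window held 0 CpG pairs.

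Library totals were 23382983 to 64602477 counts in the fetal table and 28709191 to 37541045 in the uterine table, which were analysed separately because the library kits differ. The 10 members took 1.23% to 1.49% of the counts of a fetal library and 0.925% to 1.09% of those of a uterine library. All 10 passed the filter on low counts in both tables, with no fewer than 857 counts in any library. The 7 mesenchyme markers, Gli1 and collagens among them, were all above 1 CPM (counts scaled to a common library size) in each group, with summed levels of 21250 to 44333 CPM. Markers of gonad somatic and adrenal cells summed to at most 120.2 CPM, those of immune cells to 83.5, of endothelium to 69, of epithelium to 50.7, and those of neural cells, germ cells and skeletal muscle to 12.8, 6.5 and 2.6 CPM. The erythroid markers reached 133 CPM in replicate 3 of the E14.5 females and at most 55.7 CPM in any other library.

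**Figure D1:**
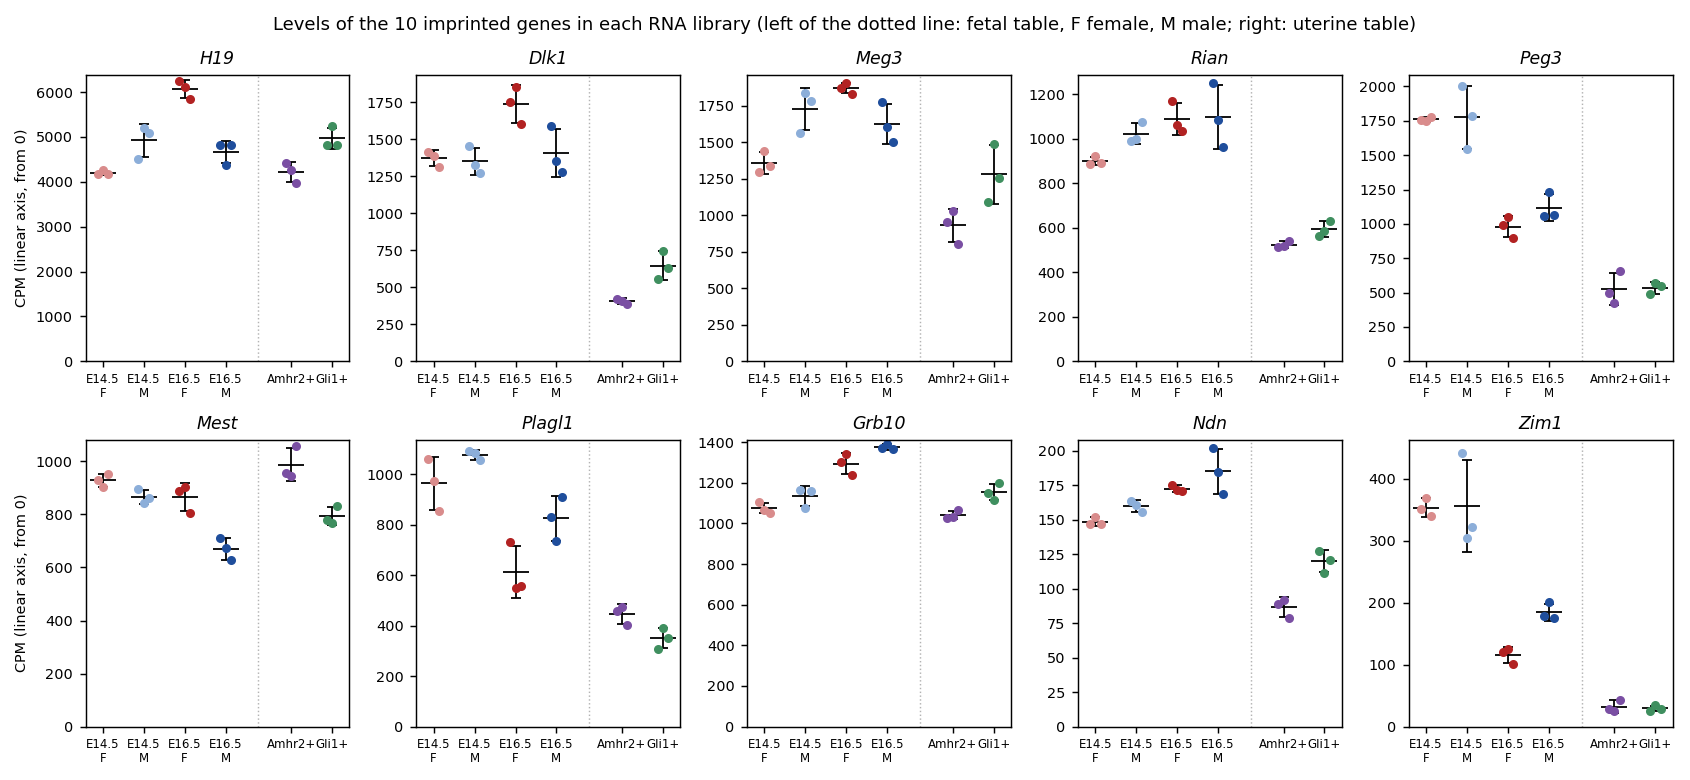
Levels of the 10 genes by group, in CPM on linear axes that start at 0, with a point per library and the mean ± SD of 3 libraries as bars. H19 is at least 5855 CPM in the E16.5 females and at most 5189 CPM in the other fetal libraries, Zim1 is at least 304 CPM in all 6 E14.5 libraries and at most 200.2 CPM in all 6 E16.5 libraries, and the uterine libraries to the right of the dotted line come from a separate table.

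The age comparison asked which genes differ between E14.5 and E16.5 within each sex, in cells that keep the same label. In females 9 of the 10 members changed: H19, Dlk1, Meg3, Rian, Grb10 and Ndn rose, and Peg3, Plagl1 and Zim1 fell. Of all 17858 genes tested, 39.6% changed, 21.0% upwards and 18.6% downwards (edgeR's quasi-likelihood test, adjusted p under 0.05). In males 6 members changed: Grb10 and Ndn rose, and Peg3, Mest, Plagl1 and Zim1 fell, where 23.3% of all genes changed, 13.1% upwards and 10.2% downwards. The median log2 fold change of the members was 0.24 in females and -0.08 in males, beside 0.00 and -0.01 over all genes. The ages did not overlap for 10 of 10 members in females and 6 of 10 in males, where 56.6% and 34.9% of all genes had no overlap. In sorted bulk samples, fewer cells of a type and less RNA per cell cannot be told apart.

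Zim1 and Peg3 encode zinc finger proteins, and Peg3 is known as a growth regulator and a binder of DNA. Zim1 stood at 350.5, 369.6 and 340.1 CPM in the E14.5 females and at 121, 125 and 102 CPM in the E16.5 females. In males it stood at 442, 304 and 322 CPM at E14.5 and at 179, 200.2 and 174 CPM at E16.5. Thus no E16.5 library reached the lowest E14.5 library in either sex, and the E16.5 females were below the E16.5 males. In females Zim1 fell by 1.61 in log2 units (SE 0.12, 3.05-fold, edgeR adjusted p = 3.14e-07) and by 0.95 in males (SE 0.12, 1.93-fold, edgeR adjusted p = 6.07e-05).

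Peg3 was more abundant than Zim1 but had the same order of ages. Its levels were 1753, 1748 and 1778 CPM in the E14.5 females and 995, 1048 and 895 CPM in the E16.5 females. The males had 2002, 1542 and 1787 CPM at E14.5 and 1055, 1230.1 and 1067 CPM at E16.5. The ages did not overlap in either sex. Peg3 fell by 0.85 (SE 0.09, edgeR adjusted p = 4.03e-06) in females and by 0.67 (SE 0.09, edgeR adjusted p = 6.13e-05) in males on the log2 scale. Usp29, another gene of this domain that was picked out after its values were seen, also fell in both sexes, by 0.58 and 0.56. Its means were below 10 CPM, at 7.97 and then 5.34 CPM in females and 9.82 and then 6.61 CPM in males.

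Plagl1 encodes the zinc finger factor that gives the network its centre. It was counted at 1063, 975 and 855 CPM in the E14.5 females and at 732, 548 and 559 CPM in the E16.5 females. In males the values were 1093, 1086 and 1057 CPM at E14.5 and 832, 735 and 913 CPM at E16.5. Every E16.5 library lay below every E14.5 library of its sex. The fall was 0.65 in females (SE 0.11, edgeR adjusted p = 0.000322) and 0.38 in males (SE 0.11, edgeR adjusted p = 0.0201), on the log2 scale.

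H19 is a noncoding RNA read from the maternal copy at chr7:142575529-142578143 (minus strand) and the precursor of a growth-limiting microRNA. Its levels in the E14.5 females were 4168, 4258 and 4168 CPM, and in the E16.5 females 6255, 6111 and 5855 CPM. In males they were 4502, 5189 and 5078 CPM at E14.5 and 4813, 4377 and 4814 CPM at E16.5. The 3 E16.5 female libraries were the highest of the 12, and the ages overlapped in males. The log2 fold change with age was 0.53 (SE 0.07, 1.45-fold, edgeR adjusted p = 2.54e-05) in females and -0.08 (SE 0.07, edgeR adjusted p = 0.469) in males.

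The 3 members on chromosome 12 passed the age test in females and not in males, and the difference between the sexes itself passed its test for Meg3 alone of the 3. Meg3, a noncoding RNA read from the maternal copy, had 1298, 1441 and 1340.3 CPM in the E14.5 females against 1873, 1909 and 1834 CPM in the E16.5 females. The males had 1565, 1836 and 1785 CPM at E14.5 and 1773, 1606 and 1502 CPM at E16.5. The female ages were far apart, and the male ages overlapped. Meg3 rose by 0.46 (SE 0.08, edgeR adjusted p = 0.000261) in females, and its log2 fold change in males was -0.09 (SE 0.08, edgeR adjusted p = 0.459).

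Dlk1 encodes a membrane protein of the Notch ligand family that is known to hold back differentiation of mesenchymal cells. It had 1417, 1384 and 1313 CPM in the E14.5 females and 1749, 1856 and 1602 CPM in the E16.5 females, so the ages did not overlap. In males it had 1451, 1329 and 1271 CPM at E14.5 and 1590.2, 1354 and 1277 CPM at E16.5, which overlap. The log2 fold change was 0.34 (SE 0.09, edgeR adjusted p = 0.00543) in females and 0.06 (SE 0.09, edgeR adjusted p = 0.667) in males.

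Rian is a noncoding RNA whose introns host small nucleolar RNAs. Its female libraries had 885, 920.3 and 892 CPM at E14.5 and 1169, 1061 and 1036 CPM at E16.5, without overlap. Its male libraries had 991, 999 and 1077 CPM and then 1251, 1082 and 964 CPM, with overlap. Rian rose by 0.28 (SE 0.08, edgeR adjusted p = 0.0172) in females, and in males its log2 fold change was 0.10 (SE 0.08, edgeR adjusted p = 0.41). Mirg, a further noncoding gene of the domain, had log2 fold changes of 0.41 in females (edgeR adjusted p = 0.000487) and -0.04 in males (edgeR adjusted p = 0.741), the male value having been picked out after it was seen.

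Grb10 and Ndn rose by similar amounts in both sexes. Grb10 (chr11:11930508-12037401, minus strand) encodes an adaptor that restrains signalling from the insulin and IGF1 receptors. It had 1103, 1067 and 1054 CPM in the E14.5 females and 1301, 1341 and 1240.1 CPM in the E16.5 females, against 1167, 1076 and 1161 CPM and then 1372, 1393 and 1368 CPM in males. Every E16.5 library was above every E14.5 library. The rise was 0.27 (SE 0.06, edgeR adjusted p = 0.00237) in females and 0.28 (SE 0.06, edgeR adjusted p = 0.00271) in males. The Ndn gene (chr7:62346569-62350262, plus strand) encodes necdin, a MAGE family protein that limits proliferation. Its female libraries went from 147, 152 and 147 CPM to 175, 172 and 171 CPM, and its male libraries from 164, 161 and 155 CPM to 202, 185 and 169 CPM. The ages did not overlap in either sex, and the log2 rises were 0.22 (SE 0.06, edgeR adjusted p = 0.0145) and 0.21 (SE 0.06, edgeR adjusted p = 0.0246).

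Mest (chr6:30733506-30748465, plus strand), which encodes a protein of the hydrolase fold and is known as a marker of fetal mesoderm, fell in males. The E14.5 and E16.5 males had 896, 842 and 861 CPM and 711, 675 and 628 CPM, a fall of 0.37 (SE 0.07, edgeR adjusted p = 0.000724). In females the values were 930.3, 904 and 951 CPM and then 887, 903 and 805 CPM. The female ages were just apart, with a log2 fold change of -0.10 (SE 0.07, 95% interval -0.23 to 0.03, edgeR adjusted p = 0.243).

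**Figure D2:**
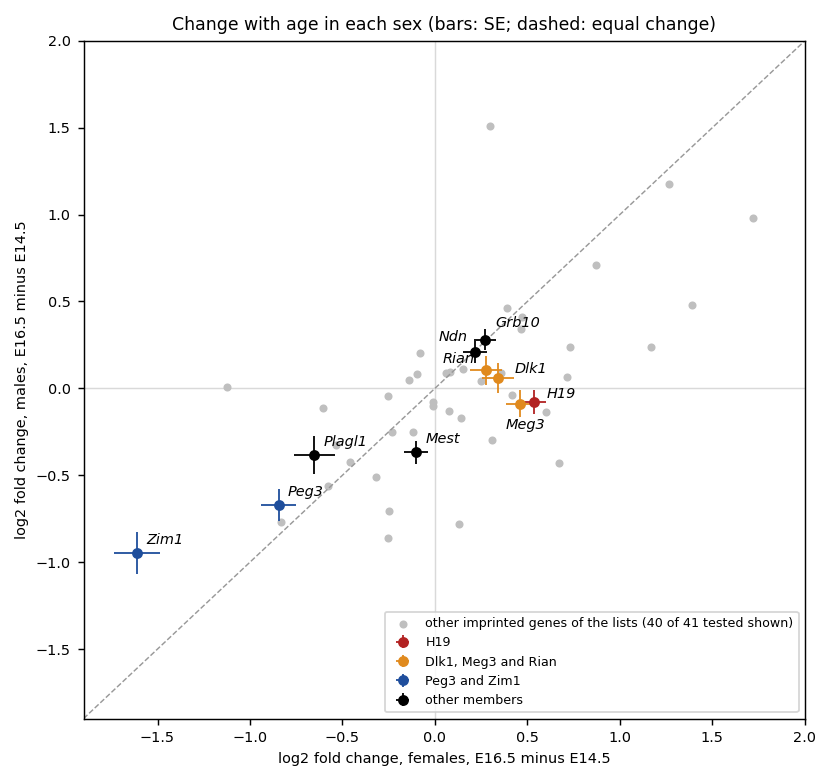
Change with age in males (vertical) against females (horizontal) as log2 fold changes, with SE bars for the 10 members, and grey points for 40 of the 41 other imprinted genes tested (Rasgrf1 lies outside the axes). H19 and Meg3 lie to the right of zero in females at 0.53 and 0.46 and near zero in males, while Zim1, Peg3 and Plagl1 lie below zero in both sexes.

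Some of these age calls were lost without a single library. In females the Rian call was lost without E14.5 replicate 1, E14.5 replicate 3 or E16.5 replicate 1 (edgeR adjusted p 0.0595, 0.0518 and 0.0834), and the Ndn call without the same libraries (0.0548, 0.05 and 0.05, before rounding just above the threshold). In males the Plagl1 call was lost without E14.5 replicate 1 or 2 or E16.5 replicate 2 (edgeR adjusted p 0.0634, 0.0557 and 0.0803). The male Ndn call was lost without E14.5 replicate 2 or 3 or E16.5 replicate 1 or 2 (edgeR adjusted p 0.0532, 0.0906, 0.0915 and 0.0507). With age the 5 smooth muscle markers (Acta2, Myh11, Tagln, Cnn1, Actg2), none of them at 0 in any group, summed to 173 to 192 CPM and then 261 to 365 CPM in females, and to 478 to 743 and then 1513 to 2703 CPM in males. The endothelial markers summed to 51.4 to 57.8 and then 33.7 to 41.7 CPM in females. Most of this was Kdr, with means of 44.8 and then 30.1 CPM. The summed mesenchyme markers went from 28559 to 30126 up to 38383 to 44333 CPM in females and from 24473 to 28654 up to 32271 to 39571 CPM in males. Epithelial markers summed to 24.7 to 28.6 and then 14.4 to 19 CPM in females. Male sums were 32.2 to 40.4 and then 21.3 to 22.8 CPM. Gonad somatic and adrenal markers summed to 37.6 to 39.6 and then 41.5 to 46.5 CPM in females. In males they had 39.4 to 46 and then 60.0 to 68.0 CPM. Dissociation response genes (Fos, Jun, Egr1 and others) had 8555 to 9521 and then 9983 to 16794 CPM in females, without overlap. In males they had 9316 to 11901 and then 3821 to 18517 CPM, with overlap. The part of these lists in the age results was not tested.

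The design also sets the sexes against each other at each age. At E14.5 the members differed little: Meg3 alone passed the test, lower in females, where 6.28% of all genes differed, 2.59% higher and 3.69% lower. At E16.5, H19, Dlk1 and Mest were higher in females and Plagl1 and Zim1 were lower, so 5 of 10 differed, where 27.3% of all genes did, 13.2% higher and 14.1% lower. The members' median log2 fold change was -0.09 at E14.5 and -0.05 at E16.5, beside -0.01 and 0.01 over all genes. The sexes did not overlap for 8 of 10 members at E16.5, where 38.3% of all genes had no overlap.

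Meg3 at E14.5 reached at most 1441 CPM in females and at least 1565 CPM in males. The female level was lower by a log2 fold change of -0.35 (SE 0.08, 1.27-fold, edgeR adjusted p = 0.0131). Of the other members, H19 had a log2 fold change of -0.23 (SE 0.07, edgeR adjusted p = 0.0665), with all 3 female libraries below the males. Rian had -0.19 (SE 0.08, edgeR adjusted p = 0.249), also with no overlap. The remaining 7 lay between -0.16 for Plagl1 and 0.10 for Mest. In all, 5 of the 10 members had no overlap between the sexes at E14.5, where 27.2% of all genes had none. The Meg3 call was lost without female replicate 1 or 3 or male replicate 2 or 3 (edgeR adjusted p 0.0800, 0.0653, 0.0624 and 0.0706).

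At E16.5 the H19 libraries of the sexes lay in the opposite order to those at E14.5. The lowest E16.5 female library had 5855 CPM of H19 and the highest male library 4814 CPM, a log2 fold change of 0.38 (SE 0.07, 1.3-fold, edgeR adjusted p = 0.000727). Mest had at least 805 CPM in females and at most 711 CPM in males, and was higher in females by 0.37 (SE 0.07, edgeR adjusted p = 0.000644). Dlk1 had at least 1602 CPM in females and at most 1590.2 CPM in males, so the groups were barely apart, and was higher by 0.30 (SE 0.09, edgeR adjusted p = 0.0152).

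The 2 members that were lower in E16.5 females were Zim1 and Plagl1. No female library exceeded 125 CPM of Zim1 and no male library was below 174 CPM, with a log2 fold change of -0.67 (SE 0.12, 1.59-fold, edgeR adjusted p = 0.000967). Plagl1 was at most 732 CPM in females and at least 735 CPM in males, and its log2 fold change was -0.43 (SE 0.11, edgeR adjusted p = 0.00916). Peg3, the neighbour of Zim1, had a log2 fold change of -0.19 (SE 0.09, edgeR adjusted p = 0.143), and Meg3 had 0.20 (SE 0.08, edgeR adjusted p = 0.0653), neither past the threshold. Same-numbered E16.5 libraries of the sexes deviated together to differing degrees, and no label says what a shared number stands for. The E16.5 libraries alone were also fitted with the replicate number as a block. In that fit Meg3 was higher in females by 0.20 (edgeR adjusted p = 0.0311) and Peg3 lower at -0.20 (edgeR adjusted p = 0.0293). It called 7 of 10 members, against 4 in the same fit without the block. Of all 17087 genes tested in these 2 fits, 5238 were called with the block and 3735 without it. Rian, Ndn and Grb10 gave -0.01, -0.10 and -0.09 (SE 0.08, 0.06 and 0.06).

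The Dlk1 call at E16.5 was the least stable: it was lost without female replicate 1 or 2 or male replicate 2 or 3 (edgeR adjusted p 0.0569, 0.0996, 0.0539 and 0.0937), and when the E14.5 libraries were left out of the model (0.0545). Meg3 passed without male replicate 1 (edgeR adjusted p = 0.0172) or without male replicate 1 of E14.5 (0.0324). E16.5 male replicate 1 had 3821 CPM of the dissociation response genes (Fos, Jun, Egr1 and others), against 10935 and 18517 CPM in the other E16.5 males and 9983 to 16794 CPM in the E16.5 females. The smooth muscle markers also separated the sexes at E16.5, with 261 to 365 CPM in females and 1513 to 2703 CPM in males. So did the endothelial markers (33.7 to 41.7 against 50.8 to 63.9 CPM), the gonad somatic and adrenal markers (41.5 to 46.5 against 60.0 to 68.0 CPM, with Hsd3b1 at 0 in the females and Cyp17a1 at 0 in the males) and the epithelial markers (14.4 to 19 against 21.3 to 22.8 CPM). Single genes made up most of the first 2 sums. Kdr alone averaged 30.1 CPM in females and 47.8 CPM in males. Foxl2 alone averaged 34.3 and 52.3 CPM, and 5 of the 8 gonad somatic and adrenal genes were at most 1 CPM in each sex. The part of these lists in the sex differences was not tested.

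**Figure D3:**
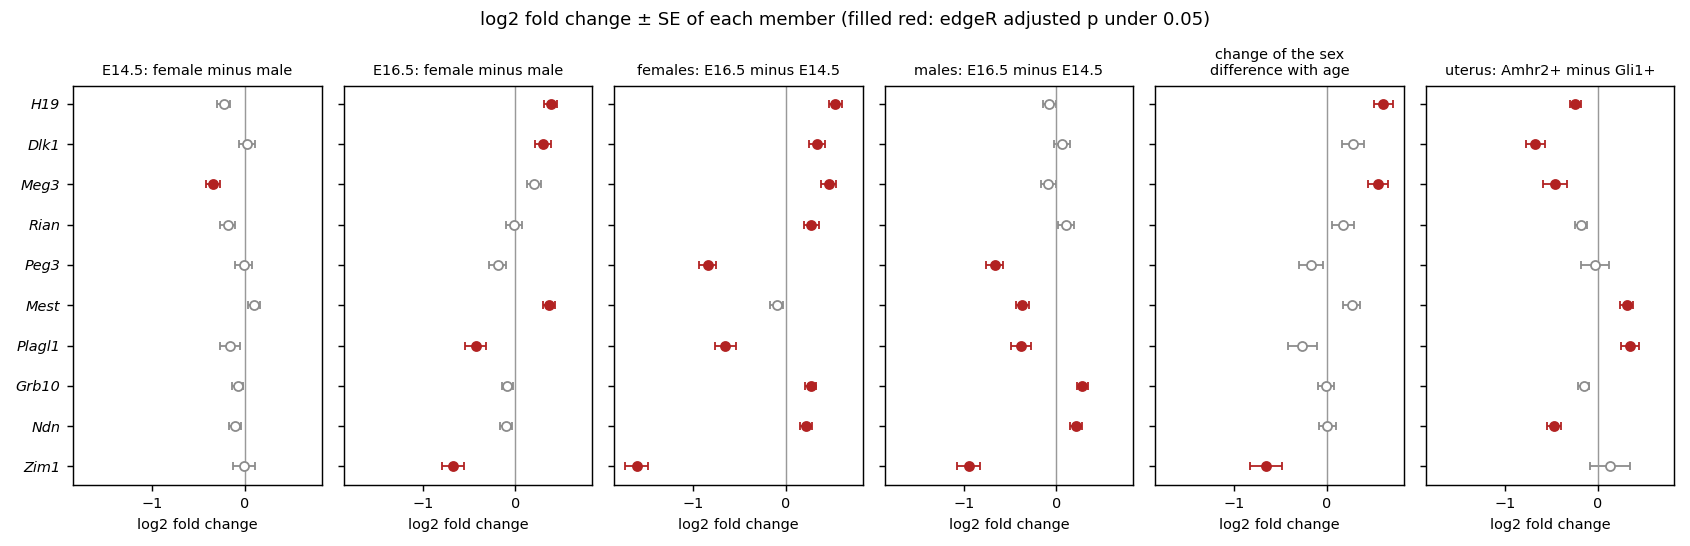
The log2 fold change of each member in the 6 comparisons, with SE bars, filled red where the edgeR adjusted p is under 0.05 and open grey where it is not. Reading across a row, H19 and Meg3 are negative at E14.5 and positive at E16.5 in the sex comparisons, and both are negative in the uterus.

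Whether the sex difference itself changed with age was tested as an interaction. It changed for 3 of 10 members, H19, Meg3 and Zim1, where it changed for 10% of all genes, 4.66% upwards and 5.36% downwards. The interaction was 0.61 for H19 (SE 0.10, edgeR adjusted p = 0.000735) and 0.55 for Meg3 (SE 0.11, edgeR adjusted p = 0.00374). For both RNAs the females moved from below the males at E14.5 to above them at E16.5, although the sex difference in Meg3 passed the test at E14.5 only and that in H19 at E16.5 only. For Zim1 the interaction was -0.66 (SE 0.17, edgeR adjusted p = 0.0242), the female fall with age having been steeper. The other 7 members gave interactions from -0.27 for Plagl1 (SE 0.16) to 0.28 for Dlk1 (SE 0.12, edgeR adjusted p = 0.171). Mest had 0.27 (SE 0.09, edgeR adjusted p = 0.0886), Rian 0.17 (SE 0.12), and Peg3 -0.18 (SE 0.13), and Grb10 and Ndn had -0.01 and 0.00 with 95% intervals of -0.18 to 0.15 and -0.17 to 0.18. The members' median was 0.09, beside 0.02 over all genes. With the replicate number as a block within each age, Mest passed as well (0.27, edgeR adjusted p = 0.0369) and the count was 4 of 10. Of all 17858 genes, 2592 passed with this block and 1790 without it.

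The Zim1 interaction was lost without E14.5 female replicate 1 or 2, E14.5 male replicate 2 or 3, E16.5 female replicate 3 or E16.5 male replicate 2 (edgeR adjusted p 0.0533, 0.0623, 0.0529, 0.0663, 0.0508 and 0.0667). Without E16.5 male replicate 1 the count was 5 of 10, with Dlk1 (0.38, edgeR adjusted p = 0.0259) and Mest (0.31, edgeR adjusted p = 0.0345) added. In that fit 2687 of all 18218 genes passed, against 1790 of 17858 with every library. Mest was also added without E16.5 female replicate 3 (0.32, edgeR adjusted p = 0.0467).

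The uterine comparison set Amhr2+ against Gli1+ cells at E19.5. H19, Dlk1, Meg3 and Ndn were lower in Amhr2+ cells and Mest and Plagl1 were higher, so 6 of 10 members differed, where 23.9% of all 16195 genes tested did, 10.1% higher and 13.7% lower. The members' median log2 fold change was -0.16, beside 0.00 over all genes. In 8 of the 10 members the groups did not overlap, where 44.4% of all genes had no overlap.

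Dlk1 had the widest gap of the 10. Its Amhr2+ libraries had 423, 407 and 384 CPM and its Gli1+ libraries 556, 748 and 631 CPM, a log2 fold change of -0.67 (SE 0.10, 1.59-fold, edgeR adjusted p = 0.00272). Meg3 had 957, 1028 and 806 CPM against 1093, 1490.3 and 1257 CPM, a log2 fold change of -0.46 (SE 0.13, edgeR adjusted p = 0.0345). On chromosome 12 the gap thus narrowed from Dlk1 to Meg3 to Rian in these estimates, though differences between the genes were not tested. Rian itself had 512, 519 and 541 CPM against 563, 585 and 632 CPM, and its log2 fold change of -0.18 (SE 0.06, edgeR adjusted p = 0.0788) did not pass.

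Ndn was lower in Amhr2+ cells without overlap. It had 89.1, 91.9 and 78.4 CPM in Amhr2+ and 127, 111 and 121 CPM in Gli1+ libraries, a log2 fold change of -0.47 (SE 0.08, edgeR adjusted p = 0.00411). H19 had 4411, 4253 and 3971 CPM against 4831, 5247 and 4827 CPM, a log2 fold change of -0.24 (SE 0.06, edgeR adjusted p = 0.0293). Mest and Plagl1 went the other way. Mest had 957, 946 and 1059.9 CPM in Amhr2+ and 777, 769 and 833 CPM in Gli1+ libraries, a log2 fold change of 0.32 (SE 0.07, edgeR adjusted p = 0.0122). Plagl1 had 459.7, 476 and 402 CPM against 309, 389.7 and 353 CPM, a log2 fold change of 0.35 (SE 0.10, edgeR adjusted p = 0.0349).

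The remaining members did not pass the test. Grb10 had 1027, 1031 and 1064 CPM in Amhr2+ against 1152, 1117 and 1197 CPM in Gli1+ libraries, without overlap, and a log2 fold change of -0.15 (SE 0.06, edgeR adjusted p = 0.0895). Peg3 had 498, 422 and 654 CPM against 488, 569.7 and 546 CPM (-0.03, SE 0.15, 95% interval -0.32 to 0.27). Zim1 was scarce in the uterus, at 28.3, 24.7 and 43.4 CPM against 25.5, 34.0 and 28.1 CPM (0.13, SE 0.21, 95% interval -0.29 to 0.55), and its groups overlapped, as did those of Peg3.

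Leaving out a library left 3 or 4 of the 6 uterine calls, and those of Dlk1 and Ndn passed in each of these fits. Calls over all genes fell too, from 3866 of 16195 to between 1949 of 16476 (without Amhr2+ replicate 1) and 3521 of 16583 (without Gli1+ replicate 3). H19 passed in none of the 6 fits that left out a library (edgeR adjusted p 0.0504 to 0.0704). Meg3 was lost without Amhr2+ replicate 1 or 3 or Gli1+ replicate 2 or 3 (edgeR adjusted p 0.0873, 0.0854, 0.0738 and 0.0627), Plagl1 without replicate 1 or 2 of Amhr2+ or 1 or 3 of Gli1+ (0.110, 0.0914, 0.107 and 0.0714), and Mest without Gli1+ replicate 1 (0.0511). The smooth muscle markers summed to 941 to 1579 CPM in Amhr2+ and 1938 to 2138 CPM in Gli1+ libraries, and the mesenchyme markers to 21250 to 23098 and 38344 to 42299 CPM. Epithelial markers summed to 49.9 to 50.7 CPM in Amhr2+ and 18.2 to 29.6 CPM in Gli1+ libraries, endothelial markers to 21.3 to 23.1 and 26.2 to 33.1 CPM, and gonad somatic and adrenal markers to 72.5 to 120.2 and 62.4 to 65.7 CPM. Single genes made up most of the endothelial and the gonad somatic and adrenal sums. Kdr averaged 19.4 CPM in Amhr2+ and 24.5 CPM in Gli1+ libraries, and Foxl2 99.4 and 62.2 CPM. Erythroid markers summed to 1.75 to 2.54 CPM in Amhr2+ and 7.84 to 8.67 CPM in Gli1+ libraries. Germ cell markers, mostly Ddx4, summed to 0.47 to 0.94 and 5.28 to 6.53 CPM, and neural markers to 9.71 to 12.8 and 8.79 to 8.97 CPM. The dissociation response genes summed to 3840, 3832 and 5025 CPM in Amhr2+ and to 6308, 1231 and 12102 CPM in Gli1+ libraries, and Gli1+ replicate 2, the lowest of these, had the highest levels of Dlk1, Meg3 and H19. The part of these lists in the uterine differences was not tested.

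Levels of different genes were compared per kilobase of exon. H19 came first in all 6 groups, from 1707 CPM per kilobase in the E14.5 females to 2469 CPM per kilobase in the E16.5 females, with no library overlapping the next gene. In the 4 fetal groups Dlk1 (239 to 307 CPM per kilobase) and Mest (170 to 235 CPM per kilobase) followed, and these 2 overlapped at E14.5 in both sexes and not at E16.5. In the uterus Mest (250 in Amhr2+ and 201 in Gli1+) and Grb10 (114 and 127) followed H19, and Dlk1, at 71.5 and 114 CPM per kilobase, came after them, its Gli1+ libraries overlapping those of Grb10. Zim1 was last in both E16.5 groups (14.3 CPM per kilobase in females and 22.8 in males) and in both uterine groups (3.97 and 3.61), and Ndn was last at E14.5 (40.2 in females and 43.3 in males). In the E14.5 males Rian, Zim1 and Ndn could not be ranked, since each overlapped the next. Fetal and uterine levels came from different kits and were not tested against each other.

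Likeness of pattern was described as the root mean square distance between centred log2 CPM over the 12 fetal libraries, where 0 is the same pattern. Among the members the closest pairs were Rian and Ndn (0.0722), Grb10 and Ndn (0.0758), and H19 and Meg3 (0.0997). Dlk1 was nearest to H19 (0.147), Plagl1 and Peg3 were nearest to each other (0.240), Mest was nearest to Dlk1 (0.227), and Zim1 was nearest to Peg3 (0.317). The distance of Mest from a flat pattern was 0.188, less than its distance to Dlk1, so no other member shared its pattern. Rian, Grb10 and Ndn were the members closest to flat (0.145, 0.149 and 0.130), and flat patterns lie close to each other whatever their shape. Over 10447 candidate genes the nearest to H19 was Ube2e2, which encodes a ubiquitin-conjugating enzyme (0.0675), and the nearest to Meg3 was Tmem150a (0.0583). Dlk1 was followed most closely by Loxl1, a crosslinker of elastin (0.0607), and Zim1 by Itga9, an integrin subunit (0.136). Peg3 was nearest to Arhgap29 (0.0900), Plagl1 to Fign (0.115), Mest to Dgkz (0.0511), Grb10 to Laptm4a (0.0340), Ndn to Capns1 (0.0493) and Rian to Ndufaf1 (0.0454). The libraries share their groups and depths, and the distances carry no test.

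The open-chromatin list combines 8 ATAC-seq samples of fetal Gli1+ cells, 2 per sex and age, into 71040 peak positions without a value per sample, so it shows where chromatin was called open and nothing about sex or age. A peak lay within 1 kb of the start of 8 of the 10 members, where 79.0% of all tested genes had one, and all but Rian and Mest were among the 8. A peak covered the start itself for 6 members, H19, Meg3, Peg3, Plagl1, Grb10 and Zim1, where 65.76% of tested genes had one. The peak at the Peg3 start was chr7:6730349-6730627 and was followed by 4 more inside the gene, the widest of them 696 bases (chr7:6728285-6728980). Zim1 had a single peak, of 457 bases (chr7:6696292-6696748), over its start. At Meg3 the peak at the start was chr12:109540773-109541066, and a second lay at chr12:109542958-109543086. Grb10 had 8 peaks over the gene, including the 556 bases at its start. Mest had none at its annotated start and a peak of 321 bases (chr6:30737985-30738305) that overlapped a pair of further start windows downstream in RefSeq. The peak nearest to the Dlk1 start began 348 bases inside the gene, and that nearest to the Ndn start ended at -865 bases. A second Ndn peak, inside the gene (chr7:62348165-62348353), overlapped the RefSeq start window of Ndn (chr7:62348027-62348326). The peak nearest to Rian ended at -4817 bases from its start, and another lay inside the gene.

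**Figure D4:**
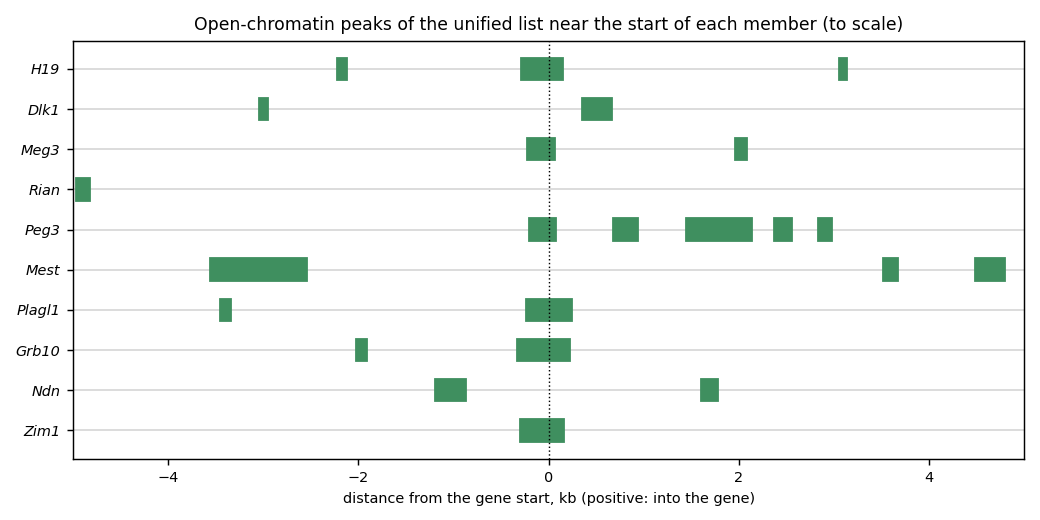
Peaks of the combined open-chromatin list within 5 kb of the start of each member, drawn to scale along the direction of transcription, with the start at 0. Bars cross the dotted line for H19, Meg3, Peg3, Plagl1, Grb10 and Zim1, Peg3 has 5 bars in this window, and Rian and Mest have none within 1 kb.

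The members were then set beside 48 other genes listed as imprinted, of which 41 were tested in the fetal and 39 in the uterine table. Whether each of them is imprinted in these cells cannot be seen from the counts. With age in females 23 of 41 changed, 15 upwards and 8 downwards (39.6% of all genes), and in males 13 of 41, 6 upwards and 7 downwards (23.3% of all genes). Between the sexes 7 of 41 differed at E14.5, 2 higher and 5 lower in females (6.28% of all genes), and 13 at E16.5, 9 higher and 4 lower (27.3% of all genes). The interaction passed for 10 of 41, 8 upwards and 2 downwards (10% of all genes), and in the uterus 16 of 39 differed, 4 higher and 12 lower in Amhr2+ cells (23.9% of all genes). Their medians of log2 fold change were 0.13 with age in females, -0.04 in males, -0.06 and 0.10 between the sexes, 0.12 for the interaction and -0.12 in the uterus.

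Igf2, the growth factor gene next to H19 that is read from the paternal copy, fell in both sexes. It had 319.6, 327 and 336 CPM and then 279, 316 and 234 CPM in females, and 310.4, 376 and 323 CPM and then 198, 215 and 206 CPM in males. The falls were 0.25 (SE 0.09, edgeR adjusted p = 0.0486) and 0.71 (SE 0.09, edgeR adjusted p = 4.39e-05), and the female ages were barely apart. At E16.5 Igf2 was higher in females by 0.42 (SE 0.09, edgeR adjusted p = 0.00339), as H19 was, and in the uterus it was lower in Amhr2+ cells at -0.43 (SE 0.09, edgeR adjusted p = 0.0108), as H19 was. The female fall of Igf2 was lost without any one of the 3 E14.5 female replicates, E14.5 male replicate 3, E16.5 female replicate 1 or 3, or E16.5 male replicate 2 or 3 (edgeR adjusted p 0.0543 to 0.224), and also with no filter on low counts (0.0586) and when only the female groups were fitted (0.0670).

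Cdkn1c, which encodes a cell cycle inhibitor and is read from the maternal copy, had a pattern of the kind seen for H19 and Meg3. Its levels were 244, 254 and 264 CPM and then 421, 424 and 407 CPM in females, and 325, 344 and 327 CPM and then 377, 338 and 326 CPM in males. It rose by 0.72 in females (SE 0.06, edgeR adjusted p = 4.86e-07), and in males the log2 fold change was 0.06 (SE 0.06, edgeR adjusted p = 0.512). The sex difference was -0.39 at E14.5 (edgeR adjusted p = 0.00172) and 0.27 at E16.5 (edgeR adjusted p = 0.00538).

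Other genes of these lists had larger sex or cell differences than any member. Slc22a3, an organic cation transporter, was lower in E16.5 females with a log2 fold change of -3.19 (SE 0.16, edgeR adjusted p = 1.67e-09), at 2.38 CPM against 21.7 CPM in males. Peg10, a gene derived from a retrotransposon, was 1.13 higher in E16.5 females (SE 0.09, edgeR adjusted p = 1.44e-07) and lower in Amhr2+ cells at -2.38 (SE 0.19, edgeR adjusted p = 0.000219). Asb4, its neighbour in the same imprinted domain, was 1.31 higher in E16.5 females (SE 0.10, edgeR adjusted p = 8.82e-08) and lower in Amhr2+ cells at -5.51 (SE 0.11, edgeR adjusted p = 1.16e-07), where it had 0.756 to 0.915 CPM against 37.8 to 39.3 CPM. Nnat, which encodes neuronatin, fell with age by 0.83 in females and by 0.77 in males, and was 1.47 higher in Amhr2+ cells (SE 0.18, edgeR adjusted p = 0.00159).

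The 13 factors that keep or remove imprints were counted as well. With age in females 7 of 13 passed the test, each of them lower at E16.5, where 18.6% of all genes were lower, and in males 1 did, where 10.2% of all genes were lower. This was Dnmt3b, a de novo methyltransferase gene, which fell by 0.33 (SE 0.08, edgeR adjusted p = 0.00808). Dnmt1, the maintenance DNA methyltransferase, fell by 0.50 (SE 0.06, edgeR adjusted p = 1.21e-05) in females, and Uhrf1, its partner at replicating DNA, by 0.49 (SE 0.08, edgeR adjusted p = 0.00011). Between the sexes at E16.5 the test called 3 of 13, where 27.3% of all genes differed: Dnmt1 and Uhrf1 were lower in females, at -0.24 and -0.32 (edgeR adjusted p 0.0066 and 0.00457), and Dnmt3b was higher at 0.23 (edgeR adjusted p = 0.0467). At E14.5 edgeR called 0 of the 13, where it called 6.28% of all genes, with 4 at an unadjusted p under 0.05, and DESeq2 called 1. In the uterus edgeR called 1 of 12 and DESeq2 called 2, where edgeR called 23.9% of all genes. The edgeR call was Tet1, which was 0.24 higher in Amhr2+ cells (SE 0.07, edgeR adjusted p = 0.0399).

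Several of these rows overlap another gene, and the sources used here do not say whether counting used strand. Dlk1, Peg3, Grb10 and Zim1 overlap no other row of the tables. Rian overlaps 19 rows, mostly of small RNAs, Meg3 and Mest overlap 5 each, H19 overlaps 3, and Plagl1 and Ndn overlap 1 each. Over the fetal libraries the overlapping rows held 0 counts for H19 and for Ndn, 20 for Meg3 and 28 for Plagl1. For Rian they held 4137 counts, beside 483781 of its own, and for Mest 28296, beside 380047. Copg2, 1 of the rows that overlap Mest, lies on the strand opposite to it. Among the other genes named, Igf2, Cdkn1c, Nnat, Mirg, Usp29 and Dnmt1 overlap at least 1 row each. Reads from the stretches that such pairs share could not be separated in the non-stranded fetal libraries.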

How the data were processed

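RNA-seq gene counts of 12 fetal and 6 uterine libraries were used. The authors deposited unnormalized read counts, a column for each library. The submitters' processing notes name STAR 2.5, featureCounts of Subread 1.5.0-p1 and the build mm10 and, for the open-chromatin data, Bowtie 1.2, MACS2 2.1.1, bedtools 2.24.0, Picard and SAMtools 1.3.1, without their settings. The annotation version and the use of strand in counting are not given in the sources used here. The kit was non-stranded for fetal and stranded for uterine libraries, per the labels' protocols, so each table was analysed by itself. Peaks are 1 deposited list for all ATAC-seq samples, with positions only.

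Counts were tested with edgeR 4.0.16 in R 4.3.3: filterByExpr by group, TMM normalization, robust quasi-likelihood fits and Benjamini-Hochberg adjustment over all 17858 fetal or 16195 uterine genes that passed the filter, with a threshold of 0.05. The 4 fetal groups shared 1 model. CPM uses the TMM-scaled library size. Standard errors were derived from the log2 fold change and the square root of its F statistic, and log2 fold changes are the first named group minus the second. Levels per kilobase use the union of GENCODE vM21 exons. On simulated counts with the fetal depths, 89.9% of genes changed 2-fold were called in the E16.5 sex comparison. The simulation set the same variation between libraries for every gene and drew the changed genes at random from all that passed the filter. The rate is therefore not one for the members, whose changes were all smaller than 2-fold but for that of Zim1 with age in females.

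The groups and replicate numbers came from the sample labels. Same-numbered E16.5 female and male libraries deviated together (correlations 0.28, 0.11 and 0.40 of their deviations from the group means), so values with the replicate number as a block are given for that comparison where a call changes. No label says what a shared number stands for. DESeq2 1.42.0, other size factors, no filter, only the groups compared and each library left out were tried as alternatives. The members and gene lists were chosen with earlier results of these data known. All 10 members are named, and from the other lists up to 3 genes per comparison with the largest change past the threshold and at least 10 CPM, plus Igf2 and Cdkn1c. Of the lists of 26 paternally and 22 maternally read genes, those under the filter were not tested.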

Additional observations from a re-analysis of the deposited data

Results flagged for a closer look

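By edgeR's interaction test (adjusted p under 0.05, in log2 units, positive where females gained on males), the sex difference changed between E14.5 and E16.5 for 10% of all genes. It changed for 3 of 10 members, 10 of 41 other genes listed as imprinted and 2 of 13 imprint factors. Among the members these were H19 at 0.61, Meg3 at 0.55 and Zim1 at -0.66.

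Among the other genes listed as read from the maternal copy, the interaction was 0.65 for the cell cycle inhibitor gene Cdkn1c, 0.61 for Asb4 and -1.13 for the transporter gene Slc22a3. Slc22a3 averaged 5.18 and 2.38 CPM in the E14.5 and E16.5 females and 21.6 and 21.7 CPM in the males. Among those listed as read from the paternal copy the interaction was 0.73 for Peg10, 0.61 for Airn and 0.46 for Igf2. The other 4 imprinted genes lay outside the naming rule and are given after their values were seen: Mirg at 0.45, Klf14 at 0.93, Dio3 at -1.22 and Rasgrf1 at 2.79, the last 3 with means below 10 CPM in every group. Airn is antisense to Igf2r, and the fetal libraries are not stranded. Reads from the stretch that both genes cover (chr17:12741311-12769664) thus cannot be told apart, while the rest of Airn, up to chr17:12860122, lies outside Igf2r. The Igf2 interaction was lost in 9 of the 12 fits that left out a library, with edgeR adjusted p from 0.00514 to 0.123 over the 12.

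For the methylation maintenance genes the interaction was -0.39 for Dnmt1 and -0.54 for Uhrf1. Dnmt1 averaged 307 and 218 CPM in the E14.5 and E16.5 females, against 278 and 258 CPM in the males. Uhrf1 had 158 and 112 CPM in females and 137 and 141 CPM in males.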

How the results depend on the processing

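Of the 60 member results, 30 were called, and 18 of these were called in the same direction under every alternative run. None of the 30 changed sign. Those 18 were H19 and Meg3 with age in females and as interactions, H19, Mest, Plagl1 and Zim1 between the E16.5 sexes, Peg3 and Zim1 with age in both sexes, Dlk1, Grb10 and Plagl1 with age in females, Mest with age in males, and Dlk1 and Ndn in the uterus. Scaling by library size only took the calls from Rian and Ndn with age in females (adjusted p 0.0579 and 0.0702), Ndn with age in males (0.125), and H19 and Meg3 in the uterus (0.122 and 0.0652). With no filter Zim1 lost its interaction (0.0536), Plagl1 its age call in males (0.0537) and Meg3 its uterine call (0.0553). Fitting the compared groups alone took the call from Ndn with age in males (0.117) and from Dlk1 at E16.5 (0.0545). The replicate block was fitted on the compared groups alone, except within age for the interaction. In that fit Grb10 with age in males did not pass (0.0908) and Ndn, already lost without the block, had 0.192, while Mest passed as an interaction (0.0369). The blocked fit changed no other member call besides those of H19 at E14.5 and of Meg3 and Peg3 at E16.5, and Dlk1 at E16.5 passed in it. H19 at E14.5 passed with the block, with DESeq2 and with no filter (0.0435, 0.0149 and 0.0397), so the members called there were 2 under each of the 3. Meg3 at E16.5 also passed with DESeq2 (0.0428). Same-numbered libraries correlated at 0.07, 0.05 and 0.05 between the E14.5 sexes and at 0.00, 0.22 and 0.24 in the uterus. The count of other imprinted genes at E14.5 was 4 with RLE size factors, against 7. The cause of these changes was not tested.

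Leaving out a library gave 0 to 2 members called at E14.5, 2 to 5 for the interaction and 3 to 4 in the uterus, and 3 to 10 other imprinted genes at E14.5. Without a library some values below the threshold changed sign, over these ranges: Dlk1 -0.019 to 0.076 at E14.5 and -0.037 to 0.14 with age in males, Rian -0.11 to 0.090 at E16.5, Peg3 -0.11 to 0.080 at E14.5 and -0.21 to 0.12 in the uterus, Grb10 -0.053 to 0.025 and Ndn -0.072 to 0.071 as interactions, Zim1 -0.11 to 0.17 at E14.5 and -0.14 to 0.30 in the uterus, and Igf2 -0.096 to 0.047 at E14.5. Others near 0 changed sign with the block (Peg3 0.0018 and Zim1 0.016 at E14.5), with library size only (Peg3 0.057 in the uterus, Grb10 interaction 0.0021) and for the Ndn interaction with RLE (-0.0086), no filter (-0.00071) and DESeq2 (-0.0085).

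Over all genes, the E14.5 sexes gave 1121 calls, 1390 with the compared groups alone and 1902 with the block added to that, 553 to 686 without E14.5 female replicate 1, 2 or 3 or male replicate 2 or 3, and 1678 without male replicate 1. Age in males gave 4168 calls, 2794 with the compared groups alone and 2425 with the block added. The interaction gave 1790 calls, 2592 with the block and 2687 without E16.5 male replicate 1, and the uterus gave 3866, against 1949 without Amhr2+ replicate 1 and 2521 without Gli1+ replicate 1. By library size only, the split of higher to lower calls was 3130 to 3924 with age in females (3746 to 3322 by TMM), 1847 to 2641 in males (2340 to 1828) and 2849 to 1640 in the uterus (1642 to 2224). Every member had at least 857 counts in each library, and groups of 3 libraries limit the precision.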

Other observations

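A few other genes listed as imprinted that the naming rule picked had differences not described above. Magel2, which lies near Ndn in the same imprinted domain and encodes another MAGE family protein, rose with age in females by 0.73 (SE 0.16, edgeR adjusted p = 0.00286) and was lower in Amhr2+ than in Gli1+ uterine cells, with a log2 fold change of -1.36 (SE 0.30, edgeR adjusted p = 0.0152), at 4.15 against 10.5 CPM. Snrpn, a splicing protein gene whose row overlaps Snurf, was lower in E16.5 females than in males at -0.81 (SE 0.11, edgeR adjusted p = 5.92e-05). Gatm, the first enzyme of creatine synthesis, was higher in Amhr2+ cells by 1.47 (SE 0.12, edgeR adjusted p = 0.000143). Kcnq1ot1, the noncoding RNA that silences the domain of Cdkn1c on the paternal copy, fell with age in males by 0.51 (SE 0.07, edgeR adjusted p = 7.61e-05). It is antisense to Kcnq1, from which non-stranded reads cannot be separated where the genes overlap. The Kcnq1 row had 136 counts over the fetal libraries, beside 25643 for Kcnq1ot1.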
